A study of Mus musculus with 73 samples.

Results

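Normal mammary gland was set against normal lung of the same inbred mouse strain, to ask which genes tell these organs apart in the absence of a tumor. The series holds 73 2-colour cDNA arrays, and 8 of them are compared here, 4 of normal mammary gland and 4 of normal lung. They were chosen by their labels: FVB mice, the model given as wild-type, and the tissue given as normal mammary gland or normal lung, each hybridised against 1 common reference RNA. No measured value entered that choice. Where tumors are named below, they are 4 FVB mammary tumors of the C3(1)/SV40 T/t-antigen model and 4 FVB lung tumors of the CC10/SV40 T/t-antigen model. In these models a C3(1) or a CC10 promoter drives the viral oncogene, and CC10 is an older name of the club cell protein that Scgb1a1 encodes. The only other tissues whose values are given are 4 arrays each of normal prostate and normal seminal vesicle of wild-type C57BL/6 mice. Strain and organ cannot be told apart against those. Standard errors and p-values rest on a spread estimated over all 35 reference arrays of the series. Besides the tissues above, these arrays hold TRAMP prostate and seminal vesicle tumors of C57 mice. The labels give no age, sex or reproductive stage. None says that samples came from separate animals, so p-values measure a spread between samples, pooled over all groups of the fit. For a gene that varied more in mammary gland or lung than in the other groups, this pooled error understates the spread of the arrays compared here.

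The mammary gland is a tree of epithelial ducts set in a pad of fat. Its luminal cells make milk proteins under prolactin and the transcription factor Stat5, and its basal cells contract. In the lung, flat alveolar type 1 cells form the gas exchange surface, cuboidal type 2 cells make surfactant, club and ciliated cells line the airways, and a dense capillary bed surrounds the air sacs.

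Each value is a log2 ratio of a tissue (Cy3) to Stratagene Universal Reference RNA (Cy5). Base and direction of this ratio are not stated in the labels. The base was taken as 2 because the selection rule of the series text then returned 2638 features, the number that text states, against 3770 for natural and 4174 for decimal logarithms. The direction was read as tissue over reference because surfactant and club cell genes had high ratios on lung arrays and casein genes on mammary arrays. Differences below are mammary gland minus lung on the log2 scale, where ± gives the standard error from limma, and group values are means ± SD over 4 arrays unless stated. Both tissues carried the same dye, so a constant dye effect on a feature was in both alike. A ratio ranks samples for 1 gene and sets no gene's level against another's.

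Between 9368 and 9566 of 9596 features had a value on the 8 arrays. Across 6770 genes, which are not independent replicates and share the reference RNA, Pearson r lay between 0.795 and 0.926 among mammary arrays, between 0.834 and 0.919 among lung arrays and between 0.541 and 0.64 across the tissues. Some arrays stood apart from their group. Mammary array 4, and less so mammary array 3, had high ratios of skeletal muscle genes, and mammary array 4 also had the highest brown fat ratios and the lowest array weight of the 8 (0.421). Lung array 2 had the lowest mean of the alveolar type 1 cell genes among lung arrays, at 1.42, and lung array 4 the highest granulocyte mean, at 0.94. Many of the results that rest on these arrays are given with and without them.

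Of 6770 genes tested, 1171 were higher (17.3%) and 855 were lower (12.6%) in mammary gland than in lung at a Benjamini-Hochberg adjusted p under 0.05 in limma, together 2026 genes (29.9%). The shares of 17.3% and 12.6% are the background for the list counts below. At least a 2-fold difference was reached by 267 of the higher genes (3.94% of those tested) and 166 of the lower ones (2.45%). Among 6537 genes with a value on all 8 arrays, all mammary arrays lay above all lung arrays for 977 (14.9%) and below them for 712 (10.9%). The median SD over 4 arrays was 0.173 in mammary gland and 0.175 in lung, and the median standard error of a difference was 0.135. With only the 8 arrays in the fit, 944 genes were higher and 670 lower. Mammary arrays 1 to 3 and lung arrays 2 to 4 have neighbouring array database numbers, and with these 6 as the arrays of both tissues 1076 genes were higher and 733 lower.

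Marker genes were read next. Surfactant, club cell and casein genes set the direction of the ratio, so they are no independent check of the labels. All 7 measured lung markers and all 4 measured fat pad markers passed the test in the direction of their tissue, and so did 9 of 11 markers of mammary epithelium. Krt19, a keratin of simple epithelia, differed by 0.50 ± 0.21 (adjusted p = 0.0803), and Wap, a whey protein of lactation, differed by -0.21 ± 0.13 (adjusted p = 0.233). Neither passed, and Krt19 was at 0.28 without mammary array 3. Sftpa1, Sftpb, Nkx2-1, Foxj1, Krt14, Krt18, Lalba, Plin1, Cfd and Lep were not measured. Calls of 3 markers were lost without single arrays: Aqp5, the water channel of type 1 cells, at -0.69 ± 0.20 (-0.47, adjusted p = 0.0624, without lung array 4), Epcam, an adhesion molecule of epithelia, at 0.96 ± 0.30 (0.79, adjusted p = 0.0683, without mammary array 3), and Elf5, a regulator of luminal cells, at 0.47 ± 0.17 (0.37, adjusted p = 0.134, without mammary array 1). Elf5 was lost without mammary array 2 or without lung array 3 or 4 as well.

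**Figure D1:**
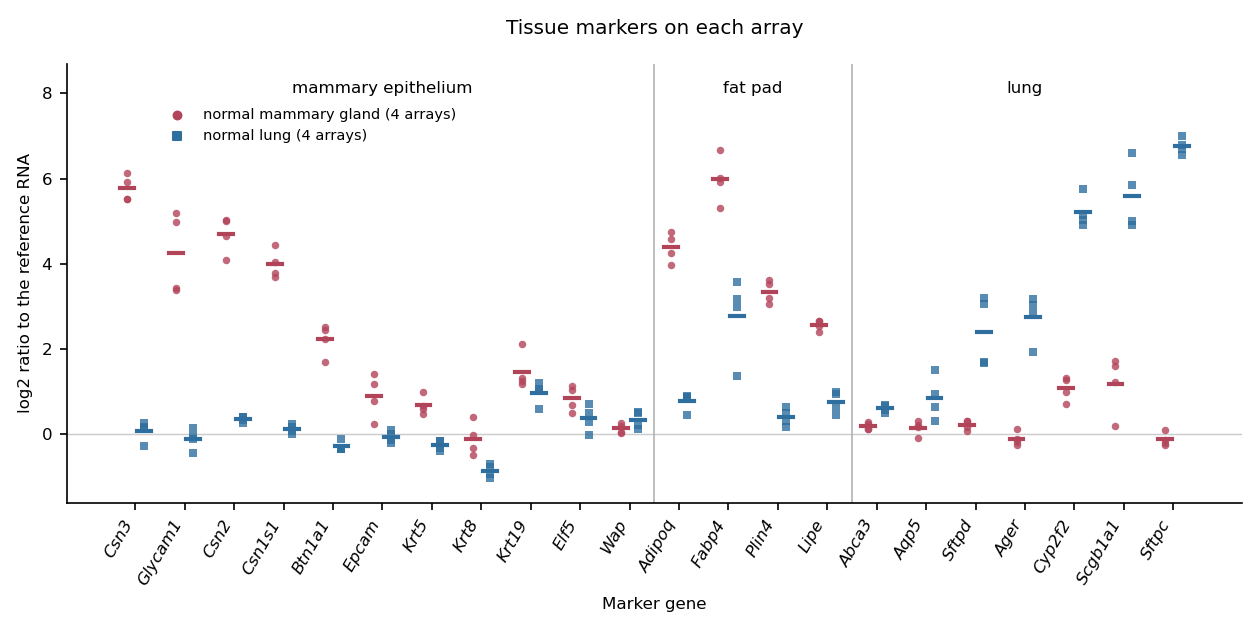
Log2 ratio to the reference RNA (vertical axis) of 22 measured marker genes (horizontal axis) on each normal mammary gland array (circles, left of each pair) and each normal lung array (squares, right), with the group mean as a bar. Sftpc separated the tissues most, at -0.11 ± 0.16 in mammary gland and 6.76 ± 0.18 in lung (SD, n = 4 each).

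The 4 largest differences above 0 belonged to genes of milk proteins. Csn3 encodes kappa-casein, which keeps casein micelles in suspension. Its log2 ratio was 6.14, 5.52, 5.52 and 5.92 on mammary arrays 1 to 4, against -0.26, 0.17, 0.27 and 0.15 on lung arrays 1 to 4. The difference of 5.69 ± 0.35 (adjusted p = 3.95e-14) is a 51.8-fold higher ratio. All mammary arrays lay far above all lung arrays, which were near 0. Beta-casein, encoded by Csn2, is a main casein of mouse milk, and its ratio was 4.67, 5.04, 5.00 and 4.08 in mammary gland, against 0.33, 0.40, 0.40 and 0.27 in lung (4.35 ± 0.37, adjusted p = 6.71e-11). Csn1s1, the alpha-S1 casein, had 3.78, 4.44, 4.05 and 3.70 in mammary gland, against 0.01, 0.25, 0.17 and 0.07 in lung (3.87 ± 0.30, adjusted p = 5.53e-12). For both genes the groups were well apart, and mammary array 4 was the lowest of its group. In bulk tissue more cells of a type and more RNA per cell cannot be told apart, here or below.

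Glycam1 is a mucin-like protein of milk that is also made by high endothelial venules of lymph nodes, and it stands on both gene lists. Its ratio was 5.19, 3.39, 4.98 and 3.43 on mammary arrays 1 to 4, against -0.03, 0.15, -0.43 and -0.12 on lung arrays (4.35 ± 0.24, adjusted p = 4.38e-15). Mammary arrays 1 and 3 were high and arrays 2 and 4 lower, and none came near lung. Of 14 measured genes of the milk protein list 11 were higher and 2 lower, with a median difference of 2.05 beside 0.01 over all genes tested. Csn1s2a, an alpha-S2 casein, was higher by 2.58 ± 0.28, but its 2 features gave 4.33 ± 0.50 and 0.83 ± 0.14. Btn1a1, the butyrophilin of the milk fat globule membrane, was higher by 2.51 ± 0.14, and Mfge8, a secreted protein of the same globules, by 1.59 ± 0.17. Wfdc18, a small secreted protease inhibitor-like protein, had 4.79, 3.59, 4.80 and 1.75 in mammary gland, against 0.51, 0.38, 1.00 and 1.45 in lung (2.90 ± 0.55, adjusted p = 9.95e-05), with mammary array 4 close to lung array 4. The 2 lower members were Xdh, xanthine dehydrogenase, at -0.90 ± 0.15, and Slc34a2, a phosphate transporter also found in type 2 cells, at -1.46 ± 0.23.

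The promoters of 3 of these genes are shown because these genes were far higher in mammary gland and each holds a match to the STAT5 motif TTCNNNGAA, searched on both strands. The letters are bases -160 to -1 before the transcription start in RefSeq on GRCm38.p6, in the direction of transcription, with the motif in capitals. Csn2 lies on the minus strand at chr5:87699426-87699585, Csn1s1 on the plus strand at chr5:87666048-87666207, and Glycam1 on the minus strand at chr15:103565082-103565241.
Csn2: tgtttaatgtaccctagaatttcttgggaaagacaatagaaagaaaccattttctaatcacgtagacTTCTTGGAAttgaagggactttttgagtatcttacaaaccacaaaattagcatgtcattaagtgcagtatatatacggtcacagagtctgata
Csn1s1: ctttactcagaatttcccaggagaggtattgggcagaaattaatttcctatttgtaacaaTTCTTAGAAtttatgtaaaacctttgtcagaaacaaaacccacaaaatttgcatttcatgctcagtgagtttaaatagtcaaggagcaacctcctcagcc
Glycam1: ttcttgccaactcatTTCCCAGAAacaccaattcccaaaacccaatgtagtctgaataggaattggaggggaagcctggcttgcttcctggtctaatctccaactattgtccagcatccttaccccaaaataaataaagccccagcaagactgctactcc
The motif starts at -93 in Csn2, at -100 in Csn1s1 and at -145 in Glycam1. Among promoters that run from 250 bases before the start to 50 after it, 4 of 10 of the milk protein list held it (40%, Csn1s2a being the other one), against 8.47% of 27025 mouse promoters. In all 8 motifs were searched in 7 lists, and this one was also in 2 of 6 club cell promoters (33.3%), 1 of 6 type 1 cell promoters (16.7%), 1 of 15 adipocyte promoters (6.67%) and 1 of 15 skeletal muscle promoters (6.67%), and in 0 of 6 type 2 cell and 0 of 13 lipogenesis promoters. A match is a description of letters and shows no binding, and the motif was searched after these values were seen. Csn1s1, Csn2, Csn1s2a and Csn3 lie on chromosome 5 in a run of 12 annotated genes that starts with Csn1s1 and ends with Csn3, and the other 8 genes of that run were not measured.

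Regulators of the mammary lineage were also higher. Of 13 measured genes 9 were higher and 0 lower, with a median of 0.78. Tfap2c, an AP-2 factor of mammary and skin epithelium, had 2.14, 1.51, 2.01 and 1.57 in mammary gland, against -0.11, 0.04, -0.05 and -0.01 in lung (1.84 ± 0.23, adjusted p = 1.72e-07). Tnfsf11, the RANK ligand that relays progesterone signals to neighbouring cells, had 2.29, 2.74, 2.57 and 0.46 in mammary gland, against 0.12, 0.07 and 0.10 on the 3 lung arrays with a value (1.92 ± 0.29, adjusted p = 1.01e-05). It was high on mammary arrays 1 to 3 and low on array 4, which still lay above lung. Stat5a, which carries the prolactin signal, was higher by 1.13 ± 0.25, and Cited1, a coactivator of estrogen receptor signalling, by 1.44 ± 0.26. The estrogen receptor gene Esr1 itself differed by -0.24 ± 0.20 and did not pass (adjusted p = 0.408).

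Of 17 keratin and junction genes shared by many epithelia, 2 were higher, Epcam and the simple keratin Krt8 (0.75 ± 0.19), and 1 lower, the tight junction gene F11r (-0.57 ± 0.13). The shares of 11.8% and 5.88% were below the 17.3% and 12.6% of all genes. Without mammary array 3 the counts were 1 higher and 2 lower. Cdh1, the E-cadherin of all these epithelia, had 2.05, 1.80, 2.60 and 0.08 in mammary gland, against 1.89, 1.23, 2.39 and 2.37 in lung. Mammary array 4 was far below all others, the groups overlapped, and the difference was -0.34 ± 0.31 (adjusted p = 0.447). Without mammary array 4 it was 0.18, adjusted p = 0.625. Of 13 basal and epidermal genes 5 were higher and 0 lower, among them the basal keratin Krt5 by 0.94 ± 0.18 and the serpin Serpinb5 by 1.07 ± 0.30.

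Fat cell genes were higher in mammary gland. Of 22 measured adipocyte genes 19 were higher and 1 lower, with a median of 1.96, and for 19 of the 22 all mammary arrays lay above all lung arrays. Adipoq, the hormone adiponectin secreted by fat cells, had 4.26, 3.97, 4.59 and 4.75 in mammary gland, against 0.89, 0.88, 0.46 and 0.91 in lung (3.61 ± 0.22, adjusted p = 4.62e-14). The fatty acid carrier Fabp4 had 6.68, 5.31, 6.02 and 5.92 in mammary gland, against 3.00, 1.38, 3.58 and 3.19 in lung, where array 2 was the lowest (3.20 ± 0.46, adjusted p = 1.24e-06). Pparg, the nuclear receptor that drives fat cell differentiation, had 2.73, 2.12, 2.63 and 1.09 in mammary gland, against -0.75, -0.63, -0.43 and -0.14 in lung (2.63 ± 0.24, adjusted p = 1.37e-10). Every lung array was below 0 and every mammary array above 1, with mammary array 4 the lowest. Car3, a carbonic anhydrase abundant in fat and muscle, was higher by 3.42 ± 0.36, with its 2 features at 3.48 ± 0.53 and 3.37 ± 0.26. The lipid droplet proteins Plin4 and Cidec were higher by 2.94 ± 0.22 and 2.58 ± 0.19, the lipases Lipe and Lpl by 1.81 ± 0.17 and 1.88 ± 0.33, the insulin-regulated glucose transporter Slc2a4 by 2.33 ± 0.23 and the retinol carrier Rbp4 by 2.84 ± 0.34. The lower gene was Mgll, a monoacylglycerol lipase, at -0.43 ± 0.16, and its groups overlapped. That call was lost without mammary array 2 or 4 or without lung array 1, 3 or 4, with values between -0.43 and -0.29, and without lung array 2 it was -0.68. Cd36, a fatty acid translocase, had 3.64, 3.12, 2.37 and 1.62 in mammary gland, against 2.10, 1.72, 2.83 and 2.77 in lung, overlapped, and differed by 0.33 ± 0.28 (adjusted p = 0.408). Without mammary array 4 the difference was 0.69, adjusted p = 0.0436. It was 0.02 without mammary array 1, 0.19 without mammary array 2 and 0.12 without lung array 2.

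Genes of fat synthesis were higher as well. Of 14 lipogenesis genes 12 were higher and 1 lower, with a median of 2.09. Thrsp, a nuclear protein that responds to thyroid hormone and carbohydrate, had 5.33, 5.12, 5.51 and 4.91 in mammary gland, against 2.23, 1.33, 1.24 and 1.99 in lung (3.52 ± 0.33, adjusted p = 3.51e-10). Fasn, the fatty acid synthase, had 3.39, 3.36, 3.83 and 2.21 in mammary gland, against 0.44, 0.43, 0.28 and 0.29 in lung (2.84 ± 0.24, adjusted p = 2.81e-11), and its 2 features gave 3.33 ± 0.27 and 2.35 ± 0.27. Me1, the malic enzyme that supplies NADPH, had 3.51, 3.37, 3.77 and 1.36 in mammary gland, against -0.53, -0.29, -0.06 and -0.17 in lung (3.26 ± 0.28, adjusted p = 6.38e-11). All 3 genes were lowest on mammary array 4 within the mammary group, and even there they exceeded every lung array. Pcx, pyruvate carboxylase, was higher by 3.01 ± 0.18, the desaturase Scd1 by 2.91 ± 0.36, the citrate carrier Slc25a1 by 2.43 ± 0.17 and the acyl-CoA binding protein Dbi, which is on no list but among the largest differences, by 3.07 ± 0.21. The lower member was Mid1ip1, a partner of acetyl-CoA carboxylase, at -0.66 ± 0.22, and its groups overlapped. It lost its call without mammary array 4 and without lung array 1, 3 or 4, with values between -0.62 and -0.43.

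Ucp1, the uncoupling protein of brown fat mitochondria, had 3.60, 2.61, 2.44 and 6.06 in mammary gland, against 0.59, 0.95, 1.00 and 0.83 in lung (2.83 ± 0.54, adjusted p = 1.09e-04). It was above lung on each mammary array and highest on array 4. Without array 4 the difference was 2.04, adjusted p = 8.43e-04. Of 10 brown fat genes 6 were higher and 1 lower. Without mammary array 4 the counts were 4 higher and 2 lower, and without lung array 4 they were 5 and 2. Leaving out any other single array gave 5 and 1. Ebf2, a transcription factor of brown and beige fat precursors, was higher by 1.57 ± 0.15, with 1.68, 1.61, 1.64 and 1.80 in mammary gland, against 0.21, 0.12, 0.09 and 0.01 in lung, and the mammary arrays were close together. Cox7a1, a cytochrome oxidase subunit of heart, muscle and brown fat, was higher by 1.09 ± 0.30, but 0.56, adjusted p = 0.0524, without mammary array 4. The lower member was Zic1, a zinc finger factor used as a marker of classical brown fat, with 0.16, 0.18, 0.13 and -0.16 in mammary gland, against 0.90, 0.78, 1.49 and 1.71 in lung (-1.14 ± 0.17, adjusted p = 2.69e-06).

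Mitochondrial genes were higher too. Of 32 genes of the respiratory chain and ATP synthase 28 were higher and 0 lower (median 0.957), of 17 citric acid cycle genes 14 were higher and 0 lower (median 0.961), and of 17 genes of fatty acid oxidation 12 were higher and 0 lower (median 0.75). The electron carrier Cycs had 1.24, 1.09, 1.08 and 1.37 in mammary gland, against -0.61, -0.63, -0.47 and -0.48 in lung (1.74 ± 0.19, adjusted p = 7.46e-09), with no overlap and little spread in either group. Cs, citrate synthase, was higher by 1.37 ± 0.11, Sdhb, the iron-sulfur subunit of complex II, by 1.39 ± 0.15, and Cox6a1 of complex IV by 1.59 ± 0.19. Among the oxidation genes Acadm, Acadvl and Echs1 were higher by 1.53 ± 0.19, 1.51 ± 0.17 and 1.50 ± 0.12. Uqcrfs1, the Rieske protein of complex III, was an exception at -0.30 ± 0.16 (adjusted p = 0.18), which did not pass. Without mammary array 4 or without lung array 4, 1 citric acid cycle gene was called lower, in place of 0.

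Cytosolic ribosomal protein genes were higher in 23 of 25 cases and lower in 0, with a median of 0.755. Rplp2, an acidic protein of the large subunit, had -0.66, 0.01, -0.05 and -0.51 in mammary gland, against -1.34, -1.65, -1.63 and -0.71 in lung (1.03 ± 0.21, adjusted p = 2.41e-04). Mammary arrays 1 and 4 were lower than arrays 2 and 3, and lung array 4 was the highest lung array, just below mammary array 1. The mean of the list was -0.60, -0.28, -0.30 and -0.92 on mammary arrays 1 to 4, against -1.18, -1.57, -1.37 and -0.84 on lung arrays 1 to 4, so the list means overlapped. For 8 of the 25 genes all mammary arrays lay above all lung arrays, beside 14.9% of genes with all 8 values.

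**Figure D2:**
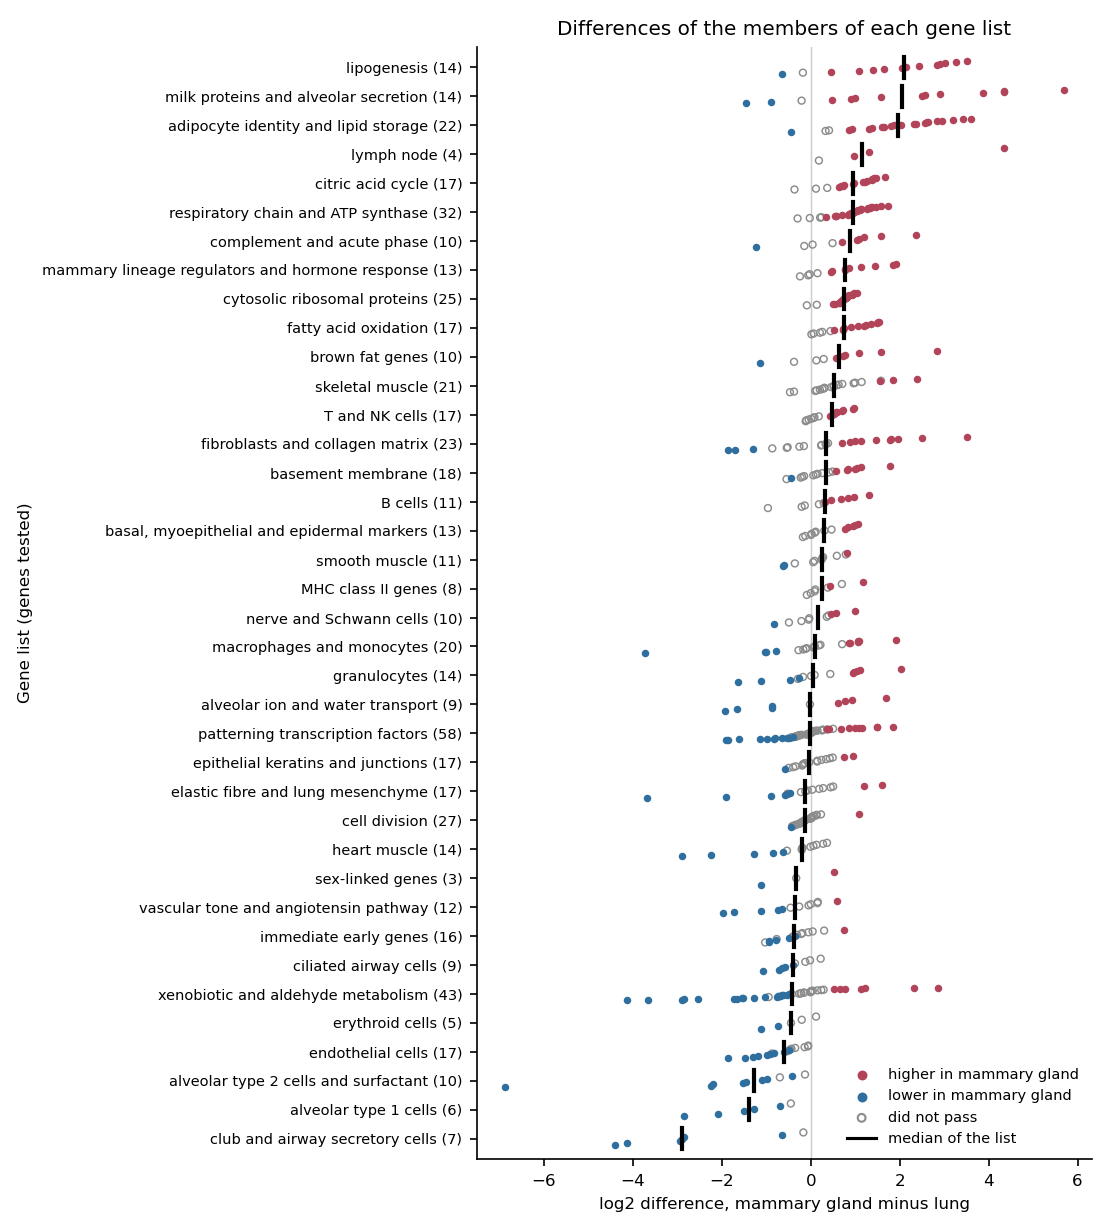
Difference of each measured member (points, horizontal axis, log2 mammary gland minus lung) of 38 gene lists (rows, with the number of genes tested), filled where the member passed and open where it did not. Medians, drawn as bars, run from 2.09 for lipogenesis to -2.89 for club and airway secretory cells.

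Connective tissue genes were higher in part. Of 23 fibroblast and collagen genes 10 were higher and 3 lower (median 0.345). Lum, the collagen-binding proteoglycan lumican, had 4.23, 3.88, 4.17 and 4.44 in mammary gland, against 0.82, 0.78, 0.44 and 0.61 in lung (3.52 ± 0.30, adjusted p = 3.23e-11). Col1a1, a chain of type I collagen, had 0.60, 0.62, 0.73 and 0.60 in mammary gland, against -1.95, -1.72, -2.14 and -1.64 in lung (2.50 ± 0.27, adjusted p = 4.85e-09), and its partner Col1a2 was higher by 1.77 ± 0.28. The 4 mammary arrays were close together for Col1a1, and the groups were far apart for both Lum and Col1a1. Mmp2, a gelatinase, and Serpinf1, the antiangiogenic factor PEDF, were higher by 1.80 ± 0.20 and 1.97 ± 0.25. The 3 lower genes were the peptidase Dpp4 at -1.87 ± 0.21, the small proteoglycan Ogn at -1.71 ± 0.33 and biglycan, Bgn, at -1.29 ± 0.20. Of 18 basement membrane genes 7 were higher and 1 lower, led by nidogen, Nid1, at 1.77 ± 0.26 and the laminin chains Lama2 and Lamb1 at 1.13 ± 0.22 and 1.04 ± 0.23.

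Surfactant and alveolar genes were lower in mammary gland. Sftpc, the surfactant protein made by type 2 cells alone, had -0.24, -0.19, -0.13 and 0.11 in mammary gland, against 6.99, 6.55, 6.80 and 6.70 in lung. The difference of -6.87 ± 0.15 (adjusted p = 5.35e-27) was the largest of all genes, a 117-fold lower ratio, and the 4 lung arrays lay close together. Of 10 measured type 2 cell genes 8 were lower and 0 higher (median -1.27). Sftpd, a collectin of innate defence, had 0.09, 0.32, 0.17 and 0.31 in mammary gland, against 3.07, 1.70, 1.68 and 3.21 in lung (-2.19 ± 0.24, adjusted p = 7.38e-09), with lung arrays 1 and 4 well above lung arrays 2 and 3. Cxcl15, the lung chemokine lungkine, was lower, at -2.25 ± 0.22, Napsa, the aspartic protease that processes surfactant proteins, at -1.53 ± 0.23, Lpcat1, which makes surfactant phospholipid, at -1.09 ± 0.17, and the lamellar body transporter Abca3 at -0.41 ± 0.08. The 2 features of Abca3 gave -0.16 ± 0.14, which did not pass (adjusted p = 0.436), and -0.66 ± 0.11. Of 6 type 1 cell genes 5 were lower and 0 higher (median -1.39). Ager, the receptor RAGE on type 1 cells, had -0.17, 0.12, -0.24 and -0.11 in mammary gland, against 3.03, 1.94, 2.86 and 3.18 in lung (-2.85 ± 0.20, adjusted p = 6.01e-13), where lung array 2 was the lowest. Clic5, a chloride channel family member, was lower, at -2.09 ± 0.25. Cav1, the coat protein of caveolae in type 1 cells, endothelium and fat cells, differed by -0.45 ± 0.22 and did not pass (adjusted p = 0.137).

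Transport genes of the alveolus split: of 9 measured, 4 were higher and 4 lower. The chloride channel gene Cftr had 0.04, 0.13, 0.24 and -0.12 in mammary gland, against 1.92, 1.89, 2.27 and 1.94 in lung (-1.93 ± 0.22, adjusted p = 2.69e-08). Car4, a carbonic anhydrase on the face of capillary endothelium, and Scnn1b, a subunit of the epithelial sodium channel, were lower, at -1.67 ± 0.23 and -0.88 ± 0.11, whereas the cytosolic carbonic anhydrase Car2 was higher by 1.70 ± 0.27.

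Airway genes were lower too. Of 7 club cell genes 6 were lower and 0 higher (median -2.89), and of 9 genes of ciliated cells 5 were lower and 0 higher. Scgb1a1, the secretoglobin CC10, had 1.60, 1.24, 1.73 and 0.20 in mammary gland, against 6.61, 4.92, 5.85 and 5.01 in lung (-4.40 ± 0.31, adjusted p = 1.51e-12). Cyp2f2, the cytochrome P450 of club cells, had 1.28, 1.00, 1.33 and 0.71 in mammary gland, against 5.77, 5.15, 5.02 and 4.91 in lung (-4.13 ± 0.40, adjusted p = 8.32e-10). For both genes the mammary ratios were above 0 and far below every lung array. Cbr2, a carbonyl reductase of lung, was lower, at -2.89 ± 0.26, Selenbp1, a selenium-binding methanethiol oxidase, at -2.93 ± 0.21, and Aldh1a1, a retinaldehyde dehydrogenase, at -2.84 ± 0.20. Among cilium genes the radial spoke gene Rsph1 was lower, at -1.07 ± 0.19, and lung array 3 lay inside the mammary range. Spa17, a protein of motile cilia and sperm tails, and Ift57, of intraflagellar transport, were lower, at -0.71 ± 0.13 and -0.64 ± 0.14, without overlap.

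Detoxifying enzymes ran both ways. Of 43 genes of xenobiotic and aldehyde metabolism 20 were lower (46.5%) and 7 higher (16.3%), beside 12.6% and 17.3% of all genes. The higher share was near that of all genes. Cyp2b10, a phenobarbital-inducible P450, had 0.06, 0.04, -0.21 and 0.71 in mammary gland, against 4.40, 3.09, 3.51 and 4.23 in lung (-3.66 ± 0.30, adjusted p = 2.44e-11), and its close relative Cyp2b9 was lower, at -3.04 ± 0.22. Features of such near-identical family members can share signal, so these 2 genes are not independent. The sulfotransferase Sult1d1 was lower, at -2.54 ± 0.20, the flavin monooxygenase Fmo1 at -1.52 ± 0.28 and the aldehyde dehydrogenase Aldh3a1 at -1.54 ± 0.18. In the other direction, Cyp2e1, the ethanol-inducible P450, had 3.76, 3.64, 3.96 and 3.19 in mammary gland, against 0.38, 0.61, 1.27 and 0.84 in lung (2.86 ± 0.29, adjusted p = 2.10e-09). The soluble epoxide hydrolase Ephx2 was higher by 2.32 ± 0.24 and Cyp1b1, which oxidises estradiol, by 1.13 ± 0.18.

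Blood vessel genes were lower in mammary gland in part. Of 17 endothelial genes 9 were lower and 0 higher (median -0.60). For 4 of the 17 all mammary arrays lay below all lung arrays, beside 10.9% of genes with all 8 values. With 1 array left out the lower count ran from 7 without lung array 1 to 12 without lung array 2. Tek, the angiopoietin receptor, had 1.49, 0.91, 0.99 and 0.69 in mammary gland, against 2.91, 2.62, 3.42 and 2.58 in lung (-1.86 ± 0.16, adjusted p = 9.44e-11). Flt1, a VEGF receptor, was lower, at -0.93 ± 0.12, and Ptprb, an endothelial phosphatase, at -1.30 ± 0.25, both without overlap. Kdr, the main VEGF receptor, differed by -0.35 ± 0.16 (adjusted p = 0.104), and Cdh5, the cadherin of endothelial junctions, differed by -0.46 ± 0.25 (adjusted p = 0.166). For Cdh5 lung array 2 was below every mammary array, and without it the difference was -0.75, adjusted p = 0.014. Without lung array 1 or 4 it was -0.25 or -0.27. For Kdr it was -0.53, adjusted p = 0.00923, without lung array 2 and -0.46, adjusted p = 0.0428, without mammary array 1, but -0.20 without mammary array 4. Its 2 features gave -0.55 ± 0.17 and -0.15 ± 0.20. Of 12 genes of vascular tone 5 were lower and 1 higher. Ace, which makes angiotensin II on lung capillaries, had 0.32, 0.52, 0.72 and 0.75 in mammary gland, against 3.01, 1.44, 2.71 and 3.07 in lung (-1.98 ± 0.30, adjusted p = 3.01e-06). Bmp6 and the receptor Bmpr2, which is mutated in familial pulmonary hypertension in humans, were lower, at -1.71 ± 0.19 and -1.13 ± 0.13. Nos3, the endothelial nitric oxide synthase, was the gene that was higher, by 0.60 ± 0.11, with 0.85, 0.79, 1.26 and 0.57 in mammary gland, against 0.12, 0.26, 0.27 and 0.42 in lung.

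Some genes of lung mesenchyme were lower. Inmt, a methyltransferase abundant in lung, had 0.12, 0.15, 0.28 and 0.38 in mammary gland, against 4.57, 3.75, 2.89 and 4.40 in lung (-3.67 ± 0.26, adjusted p = 6.85e-13). Foxf1, the forkhead factor of lung mesenchyme and capillaries, had -0.27, 0.35, -0.08 and -0.63 in mammary gland, against 2.00, 0.85, 1.78 and 2.15 in lung (-1.85 ± 0.22, adjusted p = 3.27e-08). Tcf21, a factor of lung fibroblasts, was lower, at -1.91 ± 0.30, and Gata2, a zinc finger factor, at -1.62 ± 0.22. Of 17 genes of elastic fibres and lung mesenchyme 6 were lower and 2 higher. Ltbp4, which organises elastic fibres, was lower, at -0.89 ± 0.19, and the 2 higher genes were Mfap5, a microfibril protein, at 1.60 ± 0.32 and the crosslinking enzyme Loxl1 at 1.20 ± 0.29. Loxl1 had values on 3 lung arrays and was not tested without any of them. The higher count of the list was 1 without lung array 3 or 4 and 3 without lung array 1 or 2. Its lower count was 4 without mammary array 2 or 3, and 5 without mammary array 1 or lung array 3 or 4. In each case of a smaller lower count 16 genes were tested. Of 58 patterning factors 10 were higher (17.2%) and 11 lower (19.0%), beside 17.3% and 12.6% of all genes. Hoxc6, a homeobox gene of thoracic position, had 1.57, 1.65, 1.90 and 1.40 in mammary gland, against 0.19, 0.10, -0.21 and 0.45 in lung (1.50 ± 0.14, adjusted p = 3.59e-10). Among 19 measured Hox genes 3 were higher (15.8%, near the share of all genes) and 0 lower. The other two were Hoxd9 at 0.67 ± 0.23 (0.59, adjusted p = 0.076, without mammary array 2, and also lost without lung array 3) and Hoxc5 at 0.37 ± 0.13 (0.29, adjusted p = 0.113, without lung array 1, and also lost without mammary array 2 or 3). Twist1 and Tbx15, mesodermal factors, were higher by 1.49 ± 0.34 and 1.16 ± 0.24.

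Among the largest differences were genes outside these groups. F2r, the thrombin receptor, had -1.68, -1.52, -1.57 and -1.58 in mammary gland, against 1.47, 0.98, 0.93 and 1.41 in lung (-2.79 ± 0.22, adjusted p = 5.32e-12). Loxl3, a lysyl oxidase, was lower, at -2.74 ± 0.19, and Chia1, an acidic chitinase of airways, at -3.01 ± 0.22. None of the 3 overlapped.

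Macrophage genes differed in both directions. Of 20 measured, 6 were higher and 4 lower. The higher count was 4 without lung array 2, and the lower count was 3 without lung array 4. Chil3, a chitinase-like protein of alveolar macrophages, had 0.38, -0.47, 0.45 and 0.47 in mammary gland, against 4.11, 2.65, 4.28 and 4.72 in lung (-3.73 ± 0.28, adjusted p = 3.69e-12). Lyz2, the myeloid lysozyme, was lower, at -1.02 ± 0.22. By contrast C1qa, a chain of complement C1q made by tissue macrophages, had 2.78, 2.19, 3.24 and 2.55 in mammary gland, against 1.06, 0.63, 0.15 and 1.27 in lung (1.91 ± 0.35, adjusted p = 6.65e-05), and C1qc was higher by 1.09 ± 0.21. Cd68, a general macrophage marker, differed by -0.27 ± 0.17 (adjusted p = 0.244). Of 14 granulocyte and mast cell genes 5 were higher and 4 lower, with 3 higher without mammary array 1, 2 or 3 or lung array 1 or 2, and 2 lower without lung array 1. Mcpt4, a mast cell protease, was at 1.95, 2.08, 2.57 and 1.80 in mammary gland, against 0.26, 0.01, -0.17 and 0.15 in lung (2.04 ± 0.15, adjusted p = 2.54e-12), and the chymase Cma1 was higher by 1.10 ± 0.22. S100a8, a neutrophil calcium-binding protein, had -0.03, -0.08, -0.27 and 0.27 in mammary gland, against 0.71, 0.77, 0.59 and 2.31 in lung, where array 4 was high (-1.12 ± 0.22, adjusted p = 1.62e-04, and -0.72, adjusted p = 3.95e-04, without that array).

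Part of the lymphocyte genes were higher in mammary gland. Of 17 T and NK cell genes 10 were higher and 0 lower. Without mammary array 1 the count was 6 higher, of 14 genes then tested. Of 11 B cell genes 6 were higher and 0 lower. That higher count was 4 without mammary array 1 or 2 or lung array 2, and 5 without lung array 3. Cd5, a surface protein of T cells, had 0.94, 0.99, 0.81 and 0.42 in mammary gland, against -0.35, 0.04, -0.15 and -0.21 in lung (0.96 ± 0.13, adjusted p = 4.12e-07). Cd4, the helper T cell coreceptor, was higher by 0.72 ± 0.14 and the T cell receptor chain Cd3g by 0.97 ± 0.14. Fcer2a, the low-affinity IgE receptor of B cells, had 1.41, 1.08, 1.20 and 0.50 in mammary gland, against -0.05, 0.17, -0.16 and 0.33 in lung (0.98 ± 0.13, adjusted p = 3.03e-07), and Cd79a, of the B cell receptor, was higher by 0.84 ± 0.17. Mammary array 4 was the lowest of its group for Cd5, Cd4, Fcer2a and Cd79a. Of 4 measured lymph node genes 3 were higher: Glycam1, Fcer2a and Ccr7, the receptor that guides lymphocytes into nodes, at 1.31 ± 0.15. The mean of these 4 genes was 2.34, 1.75, 1.98 and 1.52 on mammary arrays 1 to 4, against 0.18, 0.38, -0.03 and 0.22 on lung arrays 1 to 4. Whether nodes were left in the dissected gland is not given in the labels, and their part in the lymphocyte genes was not tested.

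Muscle genes varied between mammary samples. Of the 10 genes with the largest SD over mammary arrays, 8 were on the skeletal muscle list and 1 on the heart list. Tnnc2, the calcium sensor troponin C of fast muscle, had 0.21, 0.45, 4.66 and 5.85 on mammary arrays 1 to 4, against 0.67, 0.37, 0.28 and 0.28 on lung arrays. Ckm, muscle creatine kinase, had 0.41, 0.57, 3.75 and 5.23 in mammary gland, against 1.64, 2.06, 1.20 and 1.08 in lung. For both genes mammary arrays 3 and 4 were high, mammary arrays 1 and 2 lay within or below the range of the lung arrays, and the groups overlapped. Tnnc2 differed by 2.39 ± 0.81 (adjusted p = 0.0225), 1.77, adjusted p = 0.125, without mammary array 3 and 1.38, adjusted p = 0.171, without mammary array 4. Ckm differed by 1.00 ± 0.68 (adjusted p = 0.287), and by 1.69, 1.64, 0.58 and 0.08 without mammary arrays 1, 2, 3 and 4. The mean of 21 skeletal muscle genes was -0.28, 0.05, 1.30 and 2.67 on mammary arrays 1 to 4, against 0.32, 0.29, 0.09 and 0.31 on lung arrays 1 to 4. In the full comparison 3 of the 21 were higher (14.3%, beside 17.3% of all genes) and 0 lower. Without mammary array 1 the counts were 12 higher and 0 lower, without array 2 they were 5 and 0, without array 3 they were 1 and 0, and without array 4 they were 1 and 2. Without lung array 4 they were 3 and 1.

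**Figure D3:**
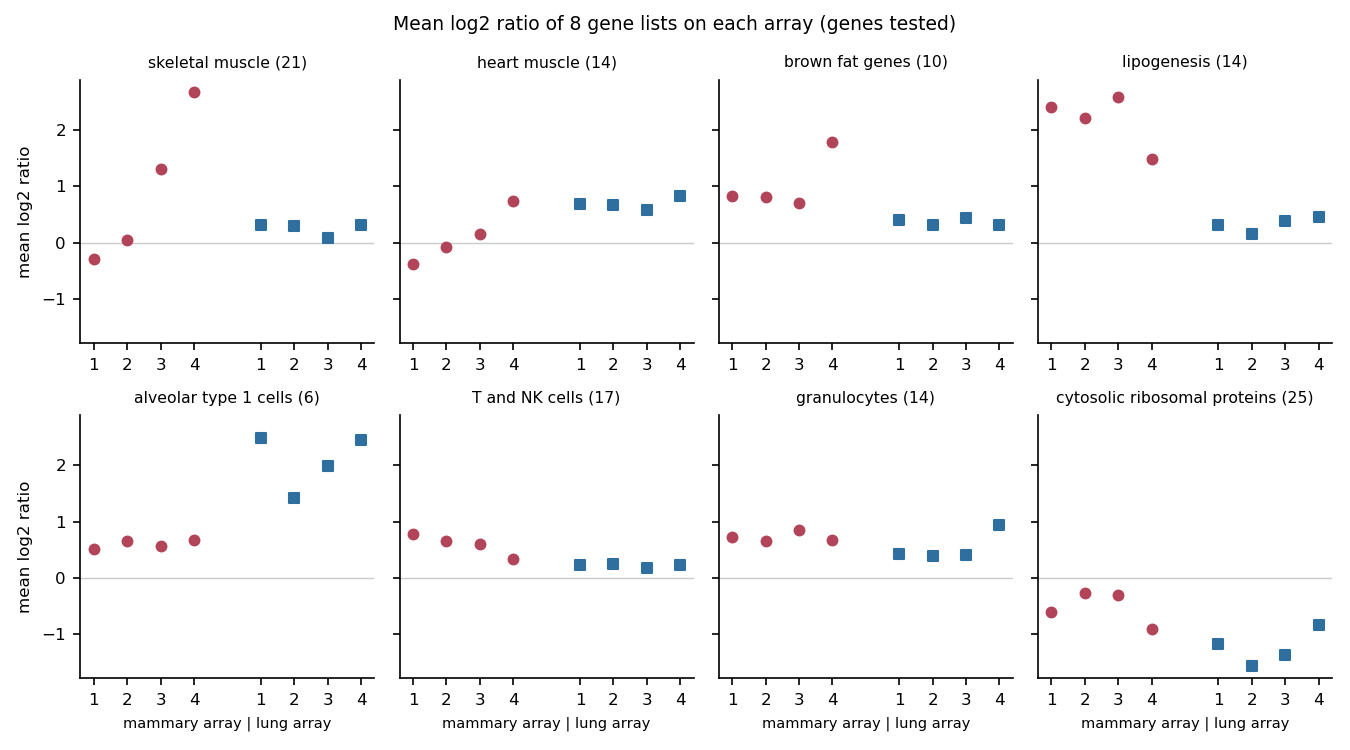
Mean log2 ratio (vertical axis) of the measured members of 8 gene lists on mammary arrays 1 to 4 (circles, left) and lung arrays 1 to 4 (squares, right). Skeletal muscle and brown fat means were highest on mammary array 4, and the granulocyte mean was highest on lung array 4.

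Of 14 measured heart muscle genes 5 were lower and 0 higher, and 9 did not pass (median -0.20), a count of 8 lower and 1 higher without mammary array 4. Tnni3, cardiac troponin I, had 0.04, 0.25, 0.25 and 1.03 in mammary gland, against 3.17, 2.42, 2.04 and 2.89 in lung (-2.24 ± 0.17, adjusted p = 3.80e-12). Tnnt2, cardiac troponin T, was lower, at -1.27 ± 0.25 with overlap, and the stretch-responsive ankyrin repeat gene Ankrd1, -3.07, -2.14, -2.59 and -1.76 in mammary gland, against 0.60, 0.11, 0.54 and 0.71 in lung, at -2.88 ± 0.34. Heart muscle surrounds the pulmonary veins of mice, and heart tissue can also stay on a dissected lung. Their part in these values was not tested. Mb, myoglobin, differed by -0.47 ± 0.50 (adjusted p = 0.524). The difference was 0.02, adjusted p = 0.978, without mammary array 1 and -1.33, adjusted p = 0.00451, without mammary array 4.

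Sex-linked genes were read because the labels give no sex. Of 3 measured, 1 was higher, 1 lower and 1 did not pass. Kdm5d, on the Y chromosome, had -1.15, -1.02, -1.0 and -0.31 in mammary gland, against -0.32, 0.39, 0.61 and 0.30 in lung (-1.11 ± 0.20, adjusted p = 3.96e-05). Lung array 1 lay level with mammary array 4. Eif2s3y, also on the Y chromosome, had -0.07, -0.53, -0.45 and -0.38 in mammary gland, against 0.56, -0.33, -0.21 and -0.14 in lung, overlapped, and did not pass (-0.33 ± 0.20, adjusted p = 0.243). Xist, which silences an X chromosome in females, had -0.19, -0.19, -0.39 and 0.38 in mammary gland, against -0.79, -0.20, -0.37 and -1.07 in lung, overlapped, and differed by 0.51 ± 0.19 (adjusted p = 0.038). That call was lost without mammary array 4 (0.35, adjusted p = 0.178), without lung array 1 (0.45, adjusted p = 0.108) or without lung array 4 (0.36, adjusted p = 0.168). Sex and tissue cannot be told apart if the sexes of the donors differed.

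Genes of cell division differed in few cases, with 3.7% called in each direction, beside 17.3% and 12.6% of all genes. Of 27 measured, 1 was higher, Ube2c, the ubiquitin carrier of mitotic exit, at 1.08 ± 0.17, and 1 lower, the kinase Plk1 at -0.44 ± 0.15. Plk1 lost its call without lung array 2 (-0.37, adjusted p = 0.0857) or lung array 3 (-0.30, adjusted p = 0.14), and without mammary array 2 or 4 or lung array 4 the lower count was 2. Of 16 immediate early genes 5 were lower and 1 higher, with 3 lower without mammary array 1 or mammary array 3 and 0 higher without mammary array 2 or 3 or lung array 4. Klf6, a zinc finger factor induced by injury, had 0.05, -0.14, -0.07 and 0.06 in mammary gland, against 0.68, 0.75, 0.81 and 0.80 in lung (-0.79 ± 0.14, adjusted p = 5.07e-05), and Gadd45b, a stress response gene, was lower, at -0.93 ± 0.14.

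In the lists not yet described, single arrays moved the counts, which stand beside 17.3% higher and 12.6% lower among all genes. Of 10 complement and acute phase genes 6 were higher and 1 lower, led by the plasma protein Orm1 (2.37 ± 0.37), with Saa3, a serum amyloid, as the lower one (-1.24 ± 0.34). The lower count was 0 without mammary array 1, 2 or 3, the arrays with a value for Saa3, since it was then not tested. Of 10 nerve and Schwann cell genes 3 were higher and 1 lower, with 2 lower without lung array 4, and the myelin gene Mbp was at 0.99 ± 0.23. Of 8 MHC class II genes 2 were higher, a count of 1 without mammary array 2 or 3 or lung array 1, 2 or 3, and H2-Ob, a chain of B cell peptide loading, was at 1.18 ± 0.13. Of 11 smooth muscle genes 1 was higher (9.09%) and 2 lower (18.2%). These counts were 3 and 1 without mammary array 1, and 0 and 2 without mammary array 4 or lung array 3. They were 1 and 1 without lung array 1, and 1 and 0 without lung array 4. Of 5 erythroid genes 2 were lower, a count of 0 without mammary array 1 or lung array 1 or 3 and of 1 without mammary array 2, 3 or 4 or lung array 2.

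Variation among lung samples involved other genes. Mup9, a major urinary protein, had the largest SD over lung arrays, with 5.88, 5.33, 5.19 and 5.15 on mammary arrays 1 to 4, against 1.28, 4.21, 4.55 and 1.37 on lung arrays 1 to 4. Lung arrays 2 and 3 were high and arrays 1 and 4 low. Features for such near-identical urinary protein genes can share signal, so the family member is uncertain. Alb, serum albumin, was 3.65 on lung array 3 and between 1.14 and 1.71 on the other lung arrays.

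Normal prostate and seminal vesicle show which differences set 1 of the pair apart from other organs as well, with strain as a limit. Sftpc was near 0 in prostate (0.21 ± 0.19) and seminal vesicle (0.36 ± 0.17), as in mammary gland. Cyp2f2 was not: its ratio was 4.43 ± 0.38 in prostate, beside 1.08 ± 0.29 in mammary gland and 5.21 ± 0.38 in lung. Fasn was near 0 in prostate (-0.17 ± 0.12) and seminal vesicle (0.10 ± 0.08), as in lung, and Csn3 was -0.09 ± 0.16 in prostate and 1.09 ± 0.30 in seminal vesicle. Tnnc2 was 5.76 ± 1.30 in prostate, beside 2.79 ± 2.88 in mammary gland.

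The same contrast was then read in SV40 tumors, and the difference between the contrasts was tested in 1 fit. Of 6768 genes, 1635 had a mammary to lung difference that was not the same in normal tissue and in tumors (24.2%). Of the 1171 genes higher in normal mammary gland 338 were also higher in mammary than in lung tumors (28.9%, beside 14.6% of all genes), and of the 855 lower genes 183 were also lower (21.4%, beside 9.28%). Genes picked for a difference in normal tissue lean towards a larger one there, so nothing is read from these counts.

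For casein genes the estimated difference was smaller between the tumors than between the normal organs. These are among the largest normal differences, which enter this test and lean its outcome that way. Csn3 was 2.82 ± 1.49 in mammary tumors and -0.11 ± 0.21 in lung tumors (2.93 ± 0.35), and the normal difference was larger by 2.76 ± 0.50 (adjusted p = 1.06e-04). For Csn2 and Csn1s1 the tumor differences were 2.80 ± 0.40 and 2.60 ± 0.32, smaller by 1.55 ± 0.55 and 1.26 ± 0.44 (adjusted p = 0.0371 and 0.0325). Glycam1 differed by 0.60 ± 0.24 between the tumors and did not pass (adjusted p = 0.0683), and the normal difference was larger by 3.75 ± 0.34 (adjusted p = 1.43e-09).

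The normal difference exceeded the tumor difference for 17 of 22 adipocyte genes and 13 of 14 lipogenesis genes past the test, with 0 in the other direction, beside 12.0% of all genes. Most of these genes had passed in normal tissue, so nothing is read from the counts. Fasn was 0.60 ± 0.78 in mammary tumors and 0.02 ± 0.10 in lung tumors, a difference of 0.57 ± 0.24 (adjusted p = 0.0777), and Pparg differed by -0.40 ± 0.24 (adjusted p = 0.237). Adipoq still differed, by 1.17 ± 0.22. Thrsp did not pass in tumors, at 0.59 ± 0.33 (adjusted p = 0.207). Col1a1 differed by 2.69 ± 0.27 in tumors, with 0.13 ± 0.38 in mammary tumors and -2.55 ± 0.23 in lung tumors, and Lum by 3.07 ± 0.30. The test of normal against tumor gave -0.19 ± 0.37 for Col1a1 (adjusted p = 0.761) and 0.44 ± 0.42 for Lum (adjusted p = 0.479).

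Of the alveolar and airway lists, 7 of 10 type 2 cell genes, 5 of 6 type 1 cell genes and 6 of 7 club cell genes were lower in mammary tumors than in lung tumors, and 0 were higher. Among all genes 9.28% were lower and 14.6% higher between the tumors. Of 9 ciliated cell genes 0 were lower and 1 higher, near these shares. For 4 of the 9 the difference was not the same as in normal tissue, beside 24.2% of all genes. Since 5 of the 9 had passed in normal tissue, nothing is read from that count. Sftpc was -0.10 ± 0.18 in mammary tumors and 5.80 ± 0.49 in lung tumors (-5.90 ± 0.15), Scgb1a1 was 0.97 ± 0.33 in mammary tumors and 5.45 ± 0.19 in lung tumors (-4.48 ± 0.31), and Cyp2f2 differed by -2.99 ± 0.40. The test of normal against tumor gave -0.97 ± 0.22 for Sftpc (adjusted p = 0.00109) and 0.07 ± 0.44 for Scgb1a1 (adjusted p = 0.924). Ager had a tumor difference of -1.97 ± 0.20, with -0.88 ± 0.28 in that test (adjusted p = 0.0197), and Chil3, of alveolar macrophages, one of -2.96 ± 0.28. The vessel gene Tek and the mesenchyme genes Inmt and Foxf1 did not pass between the tumors. Tek was 0.57 ± 0.22 in mammary tumors and 0.73 ± 0.29 in lung tumors (-0.16 ± 0.16, adjusted p = 0.529), Inmt differed by -0.39 ± 0.26 (adjusted p = 0.3) and Foxf1 differed by -0.40 ± 0.22 (adjusted p = 0.189). For these 3 genes the normal minus the tumor difference was -1.69 ± 0.23, -3.28 ± 0.36 and -1.45 ± 0.31 (adjusted p = 2.34e-06, 6.21e-08 and 6.82e-04).

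**Figure D4:**
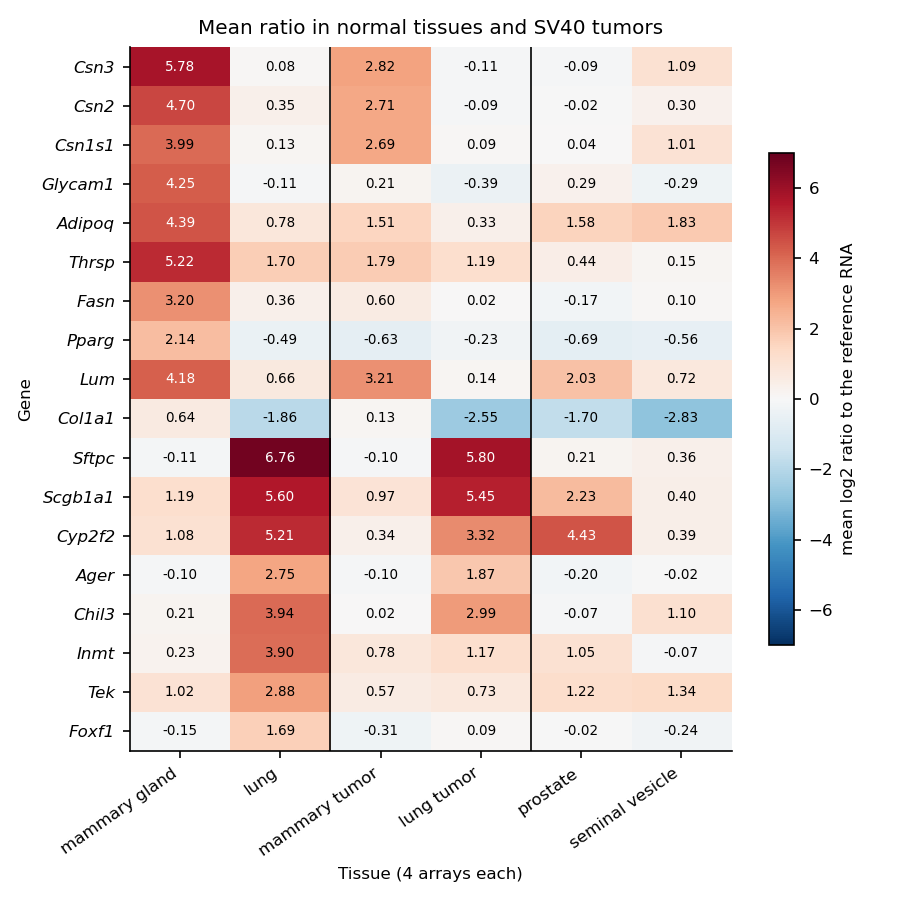
Mean log2 ratio to the reference RNA (colour and printed value, n = 4 arrays each) of 18 genes (rows) in normal mammary gland and lung, mammary and lung SV40 tumors, and normal prostate and seminal vesicle (columns). Sftpc is high in lung and lung tumors, whereas Inmt and Foxf1 are high in normal lung among these 6 tissues.

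**Figure D5:**
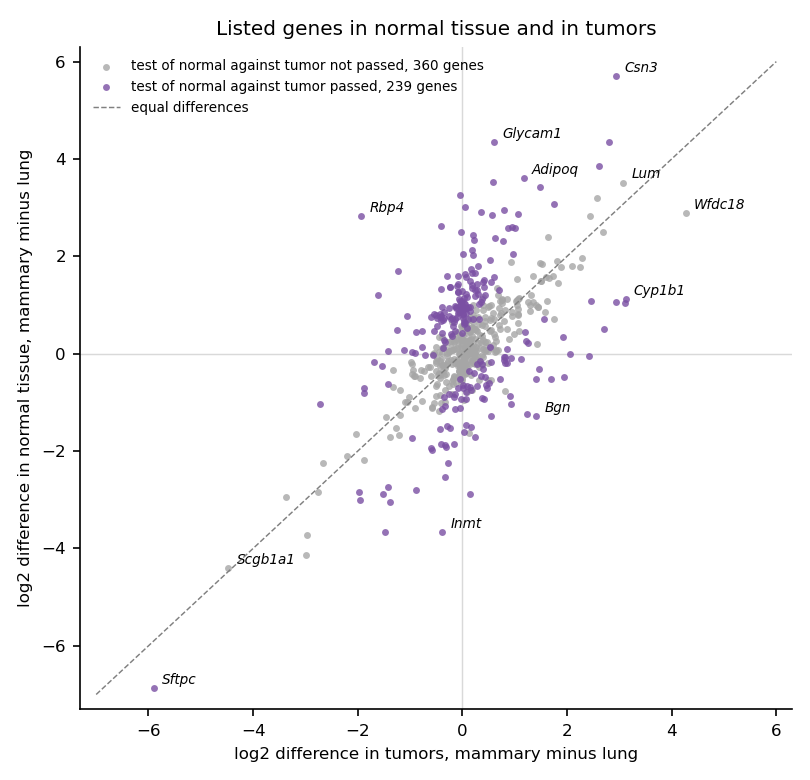
Log2 difference, mammary minus lung, of 599 listed and named genes in normal tissue (vertical axis) and in SV40 tumors (horizontal axis), with the line of equal differences dashed. The 239 genes past the test of normal against tumor are coloured, with Csn3, Glycam1 and Inmt among those far from the line and Scgb1a1 and Lum near it.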

How the data were processed

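RNA of whole tissue was hybridised with a common reference RNA on 2-colour cDNA arrays, per the labels. The authors deposited 1 centred log ratio per feature and array, read here as log2. Scanner software, background correction and normalization are not given in the sources used here, and no scanner intensities were used, so depth over background is unknown and the number of arrays limits the precision. Array medians lay between -0.025 and 0.009 on the 8 arrays.

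Of 9596 features 7486 had 1 gene symbol (7395 updated through the gene ID), 483 several and 1627 none. Values of a gene's features were averaged, which gave 6777 genes, 629 of them with several features. Of 95 genes with at least 2 features past the test, 7 had features in opposite directions. Differences were fitted with limma 3.58.1 in R 4.3.3 (lmFit and eBayes, 8 group means over 35 reference arrays, at least 3 values in each group), and p-values were adjusted by Benjamini-Hochberg over all genes tested. The script was tested on simulated data. Named were the 15 largest passing differences in each direction without overlap, up to 5 members of each of 38 gene lists in either direction by smallest p, and defining markers. Further members were named after their values were seen. Gene lists, members and rules were chosen with earlier results of these data known. Alternatives tried were other sets of arrays, centring, quantile normalization, single features, array weights, an unmoderated model, robust moderation, blocks of database numbers, the replicate number as a block, a muscle covariate and leaving out each array.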

Additional observations from a re-analysis of the deposited data

Results flagged for a closer look

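In 16 genes and 6 list means, 1 array lay far from the other 3 of its group, measured by its gap to the nearest array over the range of the group. These are 22 of 298 groups of gene values and 76 groups of list means, and chance marks about 1 group in 20. Mammary array 4 was the distant array in 6 cases. Its log2 ratios were 3.07 for Acadm, 3.49 for Cox7a1, 1.36 for Me1, 2.28 for Orm1 and -0.16 for Zic1, and its brown fat mean was 1.80. On mammary array 1 the erythroid mean was 0.496. Mammary array 2 had -0.47 for Chil3 and -0.0125 for Hoxd9, and mammary array 3 had 2.12 for Krt19 and a complement mean of 1.41.

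Among lung arrays, array 1 had -0.11 for Btn1a1, and array 2 had 0.51 for Cd4 and 2.36 for Cyp2b9. Lung array 3 had 0.46 for Adipoq and 2.27 for Cftr, with list means of 0.167 for T and NK cells and 0.086 for skeletal muscle. Lung array 4 had 0.52 for Bmpr2, -0.13 for Cox6a1 and 2.31 for S100a8, with a granulocyte mean of 0.936.

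Of the 18 genes whose tumor difference is given, 13 had a mammary to lung difference that was not the same in normal tissue and in SV40 tumors by a test of that difference. Over all 153 named genes the count was 85, beside 24.2% of all genes. Most named genes were picked by their difference in normal tissue, which enters that test, so nothing is read from these counts. The normal minus the tumor difference was 3.75 for Glycam1, 3.03 for Pparg, 2.93 for Thrsp, 2.76 for Csn3, 2.43 for Adipoq, 2.27 for Fasn, 1.55 for Csn2 and 1.26 for Csn1s1. It was -3.28 for Inmt, -1.69 for Tek, -1.45 for Foxf1, -0.97 for Sftpc and -0.88 for Ager.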

How the results depend on the processing

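Counts of higher and lower genes stayed within 1.5 times of 1171 and 855 under every alternative except the unmoderated model at the thresholds of the series text (p under 0.001 and at least 2-fold), which gave 255 higher and 157 lower genes. Leaving out 1 array at a time gave 961 to 1179 higher genes, 719 to 870 lower genes, and 1431 to 1618 genes whose difference was not the same in normal tissue and tumors. Replicate numbers did not pair the samples, with correlations of 0.00429, -0.0173, 0.0436 and -0.105 between same-numbered arrays, and the replicate block gave 816 higher and 587 lower genes. Under that block 9 ribosomal protein genes were higher, in place of 23. Among named genes 3 changed sign. Cdh1 was 0.0632 with array weights, 0.15 within 1 block of database numbers, and between -0.66 and 0.18 with 1 array left out, above 0 only without mammary array 4. Ckm was -0.26 with mean skeletal muscle ratio as covariate. Mb was between -1.33 and 0.0226 with 1 array left out, above 0 only without mammary array 1. None of these 3 passed the test in the full comparison, and the cause was not tested. No centring moved the median of all genes by 0.1. The deposited ratios were already centred, so little movement was possible, and this is no check of the authors' normalization.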
